A study of Homo sapiens with 14 samples.

Results

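The genes described here are 33 members of cholesterol and fatty acid synthesis, most of them known targets of the sterol regulatory element-binding proteins (SREBPs), taken by gene symbol from 58051 genes counted in a knockdown study of 2 human multiple myeloma lines. All 33 symbols were found in both count tables, and all 33 passed the filters on low values in every comparison. They fall into 8 mevalonate genes, 11 sterol genes, 8 fatty acid genes and 6 regulators, the last including a sterol transport protein. The study lowered ZBP1, a sensor of Z-form nucleic acids, with lentiviral short hairpins, and sequenced poly(A)-selected RNA to ask how the transcriptome of myeloma cells depends on it. Its 14 libraries form 7 groups of 2: MM1.S cells with shRNA1, MM1.S cells with shRNA2 and MM1.S cells with a scramble hairpin, which serves both, then H929 cells with shRNA1 and H929 cells with the scramble made for shRNA1, and H929 cells with shRNA2 and H929 cells with the scramble made for shRNA2. All groups were transduced and grown in RPMI medium with 10% FBS. The labels used here give no time after transduction, and they do not say whether both libraries per group stem from separate cultures. The p-values therefore rest on library-to-library spread that may be technical. Both hairpins lowered ZBP1 without removing it, and the models are 2 established lines.

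Cells build cholesterol from acetyl-CoA through mevalonate and farnesyl pyrophosphate, and farnesyl pyrophosphate either feeds squalene and the sterols or is used for protein prenylation, dolichol and ubiquinone. The SREBPs are made as membrane precursors in the endoplasmic reticulum, where SCAP escorts them to the Golgi for cleavage when sterols are low and the INSIG proteins hold them back when sterols are high. SREBP2, from SREBF2, acts mainly on cholesterol genes, and SREBP1, from SREBF1, mainly on fatty acid genes. INSIG1 is itself an SREBP target, so its transcript is often read as a sign of pathway activity. Plasma cells carry a large endoplasmic reticulum, the membrane in which the sterol enzymes and the desaturases sit.

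Promoter windows of 250 bases before to 50 bases after the annotated starts were found in RefSeq (GRCh38.p14) for 29 of the 33 members, the others being ACAT2, FASN, FDFT1 and SQLE. They were searched on both strands for the sterol regulatory element TCACNCCAC, the E-box CACGTG and the CCAAT box, a common neighbour of SREBP sites, each motif counted apart from the others, so that matches may share bases. The full sterol element stood in 1 of 29 members, SREBF2, against 1.39% of 27305 genes. With at most 1 other letter, an allowance chosen after the first search had been seen, it stood in 14 of 29 members (48.3%), against 28.2% of all genes. CCAAT stood in 21 of 29 (72.4%), against 39.7% of all genes, and CACGTG in 4 of 29 (13.8%), against 8.78%. A match describes these letters and is not shown here to be a bound site. Of the members that hold a sterol element match, 4 are printed here because their transcripts carry the results that follow: SREBF2 holds the full element, FDPS stands for the mevalonate genes, SCD for the fatty acid genes and INSIG1 for the feedback regulators. Capitals mark the sterol element matches and CCAAT, read on either strand.
SREBF2, chr22:41832855-41833154, plus strand: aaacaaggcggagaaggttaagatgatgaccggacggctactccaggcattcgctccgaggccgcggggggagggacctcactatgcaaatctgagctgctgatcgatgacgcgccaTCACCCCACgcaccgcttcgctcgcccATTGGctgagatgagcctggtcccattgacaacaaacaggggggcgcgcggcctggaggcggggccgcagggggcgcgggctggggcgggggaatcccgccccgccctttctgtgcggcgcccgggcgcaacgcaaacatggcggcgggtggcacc
FDPS, chr1:155308616-155308915, plus strand: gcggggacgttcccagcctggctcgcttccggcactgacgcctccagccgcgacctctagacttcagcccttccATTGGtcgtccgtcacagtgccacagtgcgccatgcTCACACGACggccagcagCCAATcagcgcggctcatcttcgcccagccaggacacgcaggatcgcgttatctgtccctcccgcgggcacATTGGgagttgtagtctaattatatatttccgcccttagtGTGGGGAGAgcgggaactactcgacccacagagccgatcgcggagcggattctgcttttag
SCD, chr10:100346983-100347282, plus strand: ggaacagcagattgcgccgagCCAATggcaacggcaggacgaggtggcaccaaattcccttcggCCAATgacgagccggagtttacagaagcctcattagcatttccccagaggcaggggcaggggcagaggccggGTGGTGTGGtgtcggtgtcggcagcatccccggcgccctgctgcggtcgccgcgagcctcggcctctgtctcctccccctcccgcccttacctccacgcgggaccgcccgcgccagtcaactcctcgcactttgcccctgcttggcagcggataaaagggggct
INSIG1, chr7:155297628-155297927, plus strand: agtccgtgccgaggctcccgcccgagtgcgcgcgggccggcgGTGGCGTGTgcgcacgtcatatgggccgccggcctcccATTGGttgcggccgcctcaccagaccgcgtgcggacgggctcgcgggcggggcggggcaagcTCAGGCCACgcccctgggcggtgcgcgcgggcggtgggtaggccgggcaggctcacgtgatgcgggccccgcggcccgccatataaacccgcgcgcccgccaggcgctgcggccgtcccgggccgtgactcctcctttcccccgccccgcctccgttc
The full element of SREBF2 lies at bases -133 to -125 from the start, and a CCAAT box read on the minus strand follows it at -106 to -102. FDPS holds 2 matches, at -140 to -132 and -11 to -3, with CCAAT at -122 to -118 and on the minus strand at -176 to -172 and -51 to -47. In SCD the match, read on the minus strand, lies at -114 to -106, and INSIG1 holds 2 matches, at -208 to -200 and -108 to -100.

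The 6 MM1.S libraries held 20461980 to 28419331 counted reads, and for the 8 H929 libraries the totals were 15926867 to 22254348. Levels are given below as normalised RPM (nRPM): counts brought to 1 scale over all 14 libraries by median-of-ratios size factors and then scaled to the RPM range by the mean library total. Errors after ± are standard errors of a log2 fold change. For limma values they come from the model. For edgeR values they are approximate, the absolute log2 fold change divided by the square root of the F statistic. ZBP1 itself was lower in each knockdown group, by log2 fold changes of -2.55 ± 0.15 and -3.11 ± 0.16 with shRNA1 and shRNA2 in MM1.S (edgeR adjusted p = 3.5e-05 and 2.4e-05) and of -1.31 ± 0.09 and -1.62 ± 0.09 in H929 (limma adjusted p = 8.6e-09 and 4.2e-09). The plasma cell and myeloma markers were present in every group, and their summed level was lower with knockdown, though single markers went both ways. Of the 8 markers, shRNA1 lowered 5 and raised 1 in MM1.S and lowered 5 and raised 3 in H929, and shRNA2 lowered 8 in MM1.S and 5 in H929. Of all genes tested, shRNA1 lowered 19.7% and raised 17.8% in MM1.S and lowered 27.7% and raised 25.7% in H929. With shRNA2, 21.7% of all genes were lower and 14.9% higher in MM1.S, and 25.0% and 18.0% in H929. In MM1.S the summed marker level was 3674 to 3891 nRPM with shRNA1 and 2912 to 3024 nRPM with shRNA2, against 5411 to 5448 nRPM with scramble. In H929 it was 5079 to 5458 nRPM with shRNA1 against 6262 to 6410 nRPM in its scramble, and 4666 to 4940 nRPM with shRNA2 against 6241 to 6610 nRPM in its scramble. MAF, high in MM1.S, was at 1536 to 1541 nRPM in MM1.S scramble libraries and 141.1 to 175 nRPM in H929 scramble libraries. The lists of T cell, monocyte, B cell and epithelial markers each summed to at most 30.4 nRPM in any library. The T cell list was at 22.8 to 30.4 nRPM in H929 with shRNA2 against 7.33 to 7.92 nRPM in its scramble, with CD3D at no read in both, and its part in the results was not tested. COL1A1 and COL3A1 summed to 26.6 to 32.5 nRPM in H929 with shRNA1, with COL3A1 at no read, against 0.877 to 1.05 nRPM in its scramble, and to at most 3.41 nRPM elsewhere; their part was not tested. Mitochondrial reads made up 11.6% to 12.1% of MM1.S knockdown libraries against 9.87% to 10.2% with scramble. In H929 they were 5.98% to 6.34% with shRNA1 and 8.72% to 8.80% with shRNA2, against 6.63% to 7.22% in the scramble libraries. A list of 19 proliferation genes was lower throughout, with all 19 called in each of the 4 hairpin comparisons. Its summed level was 1046 to 1245 nRPM with shRNA1 and 1341 to 1448 nRPM with shRNA2 in MM1.S, against 6018 to 6738 nRPM with scramble. In H929 it was 293.8 to 329.5 nRPM with shRNA1 against 1263 to 1298 nRPM in its scramble, and 871.9 to 949.2 nRPM with shRNA2 against 3094 to 3286 nRPM in its scramble. The part of proliferation in the lipid gene results was not tested. These are bulk libraries, so less RNA per cell and fewer cells that carry a transcript cannot be told apart. Whether strand was kept in the libraries is not stated in the sources used here. Of the members, 16 share exon bases with another annotated gene, 15 of them with one on the opposite strand. The reads of such a pair may not be separable, as for FADS2 with FEN1 and FADS1, TM7SF2 with VPS51 and ACAT2 with TCP1. HSD17B7 has a pseudogene, HSD17B7P2, with 13 to 126 reads where HSD17B7 had 260 or more.

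In MM1.S most of the pathway was lower with either hairpin. With shRNA1, 20 of the 33 members fell and 4 rose (GGPS1, SC5D, ELOVL6 and SREBF1), where 19.7% of 17820 tested genes fell and 17.8% rose. The members' median log2 fold change was -0.73, against 0.00 over all genes tested. With shRNA2, set against the same scramble libraries, 21 members fell and 1 rose (GGPS1), where 21.7% of all genes fell and 14.9% rose, and the median was -0.68 against -0.03 over all genes. By branch, shRNA1 lowered 4 of 8 mevalonate genes, 8 of 11 sterol genes, 5 of 8 fatty acid genes and 3 of 6 regulators. With shRNA2 these counts were 5 of 8, 6 of 11, 6 of 8 and 4 of 6. No branch was tested as a set. The MM1.S libraries of 1 replicate number deviate together. With the number as a block the shRNA1 comparison gave 26 lower and 5 higher members. The shRNA2 comparison gave 28 lower and 5 higher, and no call was lost in either. Over all 17820 genes the block gave 5513 lower and 5068 higher with shRNA1, against 3516 and 3173 without it. With shRNA2 it gave 5695 lower and 4779 higher over all genes, against 3865 and 2661 without it. Members that passed with the block alone were CYP51A1, ME1, HMGCS1, LSS, MVD and FASN (lower) and INSIG2 (higher) with shRNA1, at edgeR adjusted p = 2.6e-04 to 0.0217. With shRNA2 they were CYP51A1, MSMO1, ME1, NSDHL, MVD, FASN and SREBF2 (lower) and SC5D, SCAP, TM7SF2 and PMVK (higher), at edgeR adjusted p = 3.5e-05 to 0.0269. Leaving out 1 library at a time ended the shRNA1 call of 11 members at least once (ACACA, DHCR7, ELOVL6, FADS2, MSMO1, MVK, SC5D, SREBF1, SREBF2, STARD4 and TM7SF2; edgeR adjusted p = 0.0514 to 0.226). Without shRNA1 replicate 1 alone, 13 members were lower and 2 higher. For shRNA2 the same held for 9 members (ACACA, ACLY, DHCR7, ELOVL6, HSD17B7, IDI1, LSS, MVK and SREBF1; edgeR adjusted p = 0.0519 to 0.204), with 14 to 22 lower.

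In H929 the response was more mixed and differed between the 2 hairpin comparisons, each of which has its own scramble group. These scramble groups were not alike, as given below. A difference between hairpins therefore cannot be told apart from one between scramble groups here. With shRNA1, 13 members fell and 8 rose, where 27.7% of 18213 tested genes fell and 25.7% rose, and the members' median log2 fold change was -0.06 against -0.01 over all genes. Of the sterol genes 7 of 11 fell, while the mevalonate genes split into 3 lower and 3 higher and the fatty acid genes into 3 lower and 2 higher. With shRNA2, 16 members fell and 4 rose, where 25.0% of all genes fell and 18.0% rose, and the median was -0.27 against -0.02. There 7 of 8 fatty acid genes and 4 of 6 regulators fell, against 1 of 8 mevalonate genes and 4 of 11 sterol genes. The 2 H929 comparisons share no library. They shared 5 lower members (SQLE, EBP, ACLY, SCD and FADS2; 38.5% of the shRNA1 list and 31.3% of the shRNA2 list) and 1 higher member, GGPS1. A further 7 members moved in opposite directions. HMGCS1, FASN, SREBF1 and INSIG2 rose with shRNA1 and fell with shRNA2, and FDFT1, TM7SF2 and MSMO1 fell with shRNA1 and rose with shRNA2. How many of all genes were called alike or in opposite directions was not counted. These overlaps are therefore not shown to be particular to the members. In H929, leaving out 1 library at a time ended the shRNA1 call of FADS2, FASN, FDFT1, GGPS1, INSIG2, ME1, MSMO1 or MVD (limma adjusted p = 0.0559 to 0.179). Without the scramble replicate 1, 4 members were higher with shRNA1, and without shRNA1 replicate 1, 3 were. For shRNA2 the call of CYP51A1, FDFT1, LSS, SREBF2 or STARD4 was lost in this way (limma adjusted p = 0.0504 to 0.427).

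**Figure D1:**
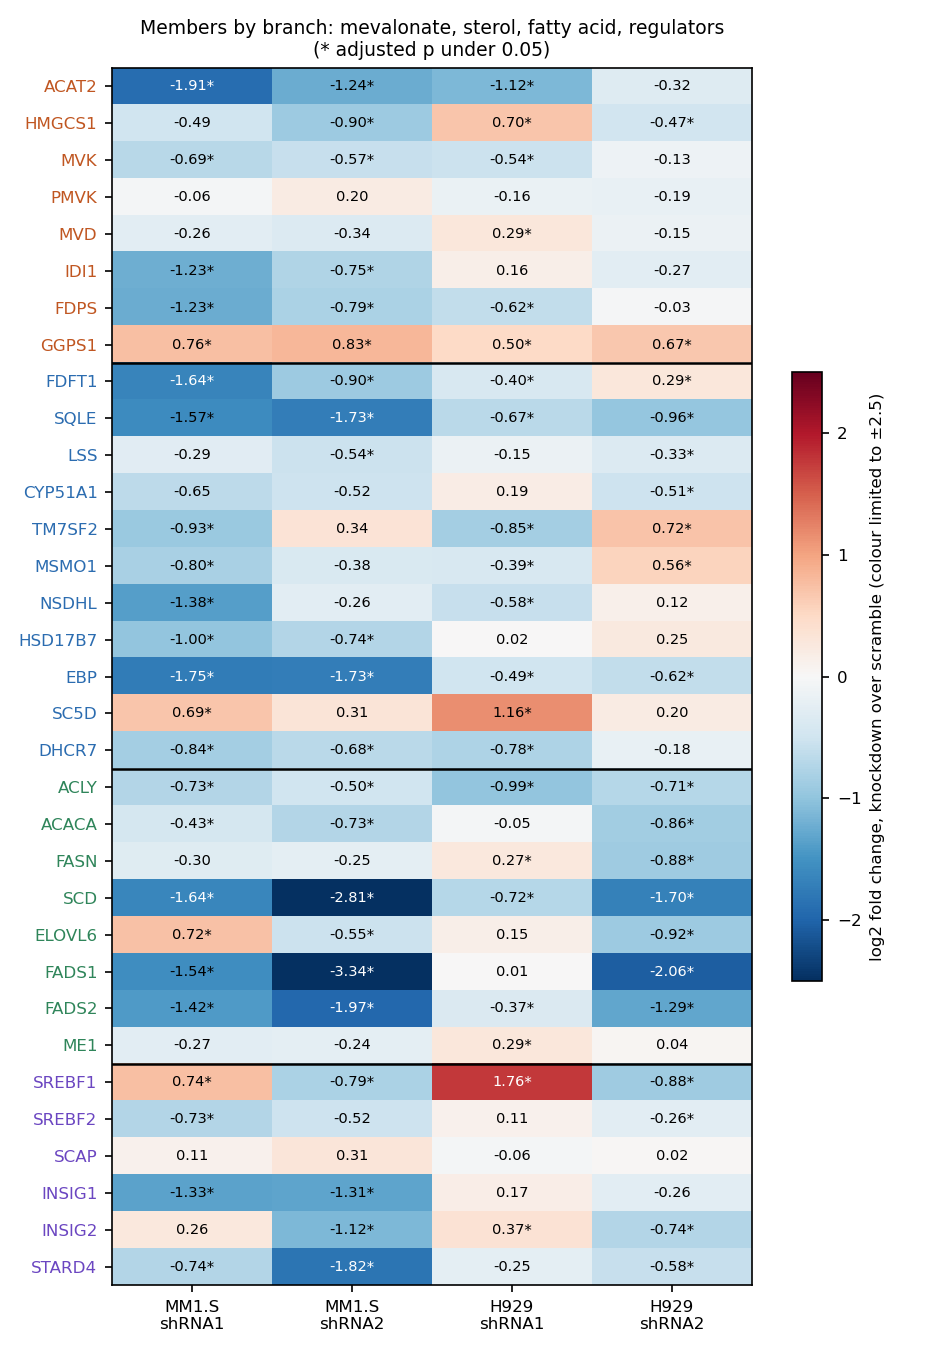
Log2 fold change, knockdown over scramble, for each of the 33 members (rows, grouped by branch) in the 4 hairpin comparisons (columns), with an asterisk where the adjusted p was under 0.05 (edgeR for MM1.S, limma for H929). Both MM1.S columns are mostly blue, the H929 columns are mixed, and SCD, FADS1 and FADS2 are deepest with shRNA2 in both lines; the SREBF1 row changes sign between the hairpins.

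Among the mevalonate genes, FDPS, which makes farnesyl pyrophosphate, had 46.6 and 52.2 nRPM with shRNA1 and 61.7 and 68.0 nRPM with shRNA2 in MM1.S, against 111 and 109 nRPM with scramble. The H929 levels were 74.0 and 74.0 nRPM with shRNA1 against 111 and 111 nRPM in its scramble, and 131 and 133 nRPM with shRNA2 against 125 and 139 nRPM in its scramble. The groups were apart everywhere except for shRNA2 in H929, whose libraries lay within the range of the scramble. For FDPS the log2 fold changes were -1.23 ± 0.13 and -0.79 ± 0.12 (edgeR adjusted p = 2.9e-04 and 0.0022) in MM1.S. In H929 they were -0.62 ± 0.08 with shRNA1 and -0.03 ± 0.08 (limma adjusted p = 1.4e-05 and 0.78) with shRNA2. ACAT2, the cytosolic thiolase that joins acetyl-CoA units at the head of the pathway, had 6.69 and 6.22 nRPM with shRNA1 and 11.2 and 8.73 nRPM with shRNA2, against 24.8 and 21.4 nRPM with scramble in MM1.S. In H929 ACAT2 stood at 2.39 and 1.93 nRPM with shRNA1 against 4.55 and 4.73 nRPM in its scramble and 6.84 and 4.79 nRPM with shRNA2 against 7.14 and 6.83 nRPM in its scramble. It fell in both MM1.S comparisons, by -1.91 ± 0.18 and -1.24 ± 0.17 (edgeR adjusted p = 2.0e-04 and 0.0012), and with shRNA1 in H929, by -1.12 ± 0.21 (limma adjusted p = 3.4e-04). With shRNA2 in H929 the ranges overlapped, at -0.32 ± 0.21 (limma adjusted p = 0.25).

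HMGCS1, the HMG-CoA synthase, went 2 ways in H929. It had 42.8 and 53.7 nRPM with shRNA1 against 28.1 and 29.6 nRPM in its scramble, and 21.2 and 22.0 nRPM with shRNA2 against 29.7 and 28.9 nRPM in its scramble. The shRNA1 libraries were above their scramble libraries and the shRNA2 libraries below theirs. For HMGCS1 the H929 log2 fold changes were 0.70 ± 0.12 and -0.47 ± 0.12 (limma adjusted p = 8.9e-05 and 0.0035). In MM1.S it had 44.9 and 40.4 nRPM with shRNA1 and 33.9 and 28.6 nRPM with shRNA2, against 66.1 and 48.2 nRPM with scramble. It fell with shRNA2, by -0.90 ± 0.17 (edgeR adjusted p = 0.0054), and missed the threshold with shRNA1, at -0.49 ± 0.17 (edgeR adjusted p = 0.053), which passed with the replicate block (edgeR adjusted p = 2.6e-04). IDI1, the isopentenyl isomerase, had 48.4 and 39.9 nRPM with shRNA1 and 61.6 and 57.0 nRPM with shRNA2 in MM1.S, against 115 and 81.8 nRPM with scramble. Its H929 levels were lower and close together, from 19.9 to 26.3 nRPM over all 8 libraries. For IDI1 the MM1.S log2 fold changes were -1.23 ± 0.18 and -0.75 ± 0.18 (edgeR adjusted p = 0.0015 and 0.012), and neither H929 comparison passed (0.16 ± 0.11 and -0.27 ± 0.11; limma adjusted p = 0.27 and 0.071). The mevalonate kinase MVK fell in 3 comparisons, by -0.69 ± 0.16 and -0.57 ± 0.16 in MM1.S and -0.54 ± 0.14 with shRNA1 in H929. PMVK, the kinase that follows it, passed in none of the 4 hairpin comparisons against their own scramble without the block (-0.19 to 0.20). On the same terms the decarboxylase MVD passed only with shRNA1 in H929, where it rose by 0.29 ± 0.10 (limma adjusted p = 0.026). With both H929 scramble groups as control, PMVK was lower with shRNA1, at -0.53 (limma adjusted p = 1.1e-04). MVD was then also lower with shRNA2, at -0.32 (limma adjusted p = 0.0074).

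GGPS1, which diverts farnesyl pyrophosphate to geranylgeranyl pyrophosphate for protein prenylation, was the mevalonate gene that rose in each comparison. In MM1.S it had 58.9 and 50.04 nRPM with shRNA1 and 58.2 and 52.9 nRPM with shRNA2, against 32.5 and 28.8 nRPM with scramble. H929 cells had 21.8 and 16.9 nRPM with shRNA1 against 13.7 and 12.8 nRPM in its scramble, and 22.4 and 19.4 nRPM with shRNA2 against 13.3 and 12.3 nRPM in its scramble. Every knockdown library was above every scramble library of its comparison. For GGPS1 the log2 fold changes were 0.76 ± 0.14 and 0.83 ± 0.14 (edgeR adjusted p = 0.0039 and 0.0027) in MM1.S, where both comparisons use the same scramble libraries. In H929 they were 0.50 ± 0.14 and 0.67 ± 0.14 (limma adjusted p = 0.0071 and 0.0012); without shRNA1 replicate 1 the shRNA1 value did not pass (limma adjusted p = 0.0978). GGPS1 shares exon bases with ARID4B on the opposite strand and with TBCE on its own strand, and their part in its counts was not tested.

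Among the sterol genes, SQLE, the squalene epoxidase at the first oxygen-dependent step, had 9.43 and 9.23 nRPM with shRNA1 and 7.88 and 8.37 nRPM with shRNA2 in MM1.S, against 29.8 and 23.0 nRPM with scramble. In the H929 libraries it had 20.5 and 21.1 nRPM with shRNA1 against 31.2 and 33.8 nRPM in its scramble, and 22.0 and 23.2 nRPM with shRNA2 against 42.8 and 43.5 nRPM in its scramble. No knockdown library reached its scramble range. For SQLE the log2 fold changes were -1.57 ± 0.17 and -1.73 ± 0.17 (edgeR adjusted p = 3.9e-04 and 2.8e-04) in MM1.S and -0.67 ± 0.10 and -0.96 ± 0.10 (limma adjusted p = 4.3e-05 and 2.0e-06) in H929. EBP, the sterol isomerase, had 20.5 and 29.6 nRPM with shRNA1 and 21.0 and 28.0 nRPM with shRNA2 in MM1.S, against 80.0 and 79.3 nRPM with scramble. In H929 EBP stood at 23.5 and 24.1 nRPM with shRNA1 against 31.8 and 33.6 nRPM in its scramble, and at 24.2 and 24.6 nRPM with shRNA2 against 34.9 and 38.8 nRPM in its scramble. The knockdown levels of EBP lay between 20.5 and 29.6 nRPM in both lines, while the scramble levels differed between the lines. For EBP the log2 fold changes were -1.75 ± 0.21 and -1.73 ± 0.21 (edgeR adjusted p = 6.4e-04 and 7.0e-04) in MM1.S and -0.49 ± 0.10 and -0.62 ± 0.10 (limma adjusted p = 8.9e-04 and 1.8e-04) in H929.

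FDFT1, the squalene synthase that commits farnesyl pyrophosphate to sterols, had 41.3 and 44.8 nRPM with shRNA1 and 68.4 and 71.0 nRPM with shRNA2 in MM1.S, against 132 and 123 nRPM with scramble. The H929 values were 48.9 and 39.4 nRPM with shRNA1 against 56.8 and 56.7 nRPM in its scramble, and 67.2 and 66.8 nRPM with shRNA2 against 52.1 and 55.1 nRPM in its scramble. The shRNA2 libraries of H929 were above their scramble libraries, whereas in the other 3 comparisons the knockdown libraries were below. For FDFT1 the MM1.S log2 fold changes were -1.64 ± 0.12 and -0.90 ± 0.12 (edgeR adjusted p = 7.3e-05 and 9.1e-04). The H929 values were -0.40 ± 0.10 and 0.29 ± 0.10 (limma adjusted p = 0.004 and 0.035). The H929 calls are small and each was lost without some library, shRNA1 without its replicate 2 (limma adjusted p = 0.0559) and shRNA2 without any 1 of its 4 libraries (limma adjusted p = 0.0692 to 0.166).

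TM7SF2, NSDHL and MSMO1, a sterol reductase, a sterol dehydrogenase and a sterol methyl oxidase, fell with shRNA1 in both lines. TM7SF2 had 7.98 and 13.2 nRPM with shRNA1 and 20.6 and 28.7 nRPM with shRNA2 in MM1.S, against 17.4 and 20.9 nRPM with scramble. In H929 TM7SF2 had 36.2 and 29.2 nRPM with shRNA1 against 56.0 and 59.0 nRPM in its scramble, and 64.0 and 63.5 nRPM with shRNA2 against 35.3 and 40.4 nRPM in its scramble. The shRNA1 libraries were below their scramble libraries in each line, and in H929 the shRNA2 libraries stood above their own scramble. For TM7SF2 the log2 fold changes were -0.93 ± 0.27 and 0.34 ± 0.26 (edgeR adjusted p = 0.029 and 0.35) in MM1.S and -0.85 ± 0.11 and 0.72 ± 0.11 (limma adjusted p = 8.7e-06 and 8.5e-05) in H929. NSDHL had 13.1 and 12.3 nRPM with shRNA1 and 26.3 and 27.1 nRPM with shRNA2 in MM1.S, against 30.7 and 32.3 nRPM with scramble. It fell with shRNA1 by -1.38 ± 0.13 (edgeR adjusted p = 2.3e-04) in MM1.S and by -0.58 ± 0.11 (limma adjusted p = 3.9e-04) in H929, and the shRNA2 values were -0.26 ± 0.13 and 0.12 ± 0.11 (edgeR adjusted p = 0.15, limma adjusted p = 0.39). MSMO1 fell with shRNA1 by -0.80 ± 0.17 in MM1.S and -0.39 ± 0.11 in H929, and with shRNA2 it rose by 0.56 ± 0.11 in H929. Its MM1.S value with shRNA2 was -0.38 ± 0.17 (edgeR adjusted p = 0.12). With the replicate block, MSMO1 and NSDHL also passed as lower with shRNA2 in MM1.S (edgeR adjusted p = 0.00125 and 0.0178).

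Among the other sterol genes, DHCR7, which performs the last step to cholesterol, fell by -0.84 ± 0.18 and -0.68 ± 0.18 in MM1.S and by -0.78 ± 0.11 with shRNA1 in H929, with -0.18 ± 0.11 (limma adjusted p = 0.19) for shRNA2 there. HSD17B7, a sterol ketone reductase, fell only in the MM1.S comparisons, by -0.996 ± 0.20 and -0.74 ± 0.20. LSS, the lanosterol synthase, fell with shRNA2 in each line, by -0.54 ± 0.16 and -0.33 ± 0.11, and missed the threshold with shRNA1 (-0.29 ± 0.16 and -0.15 ± 0.11), of which the MM1.S value passed with the replicate block (edgeR adjusted p = 0.00346). CYP51A1, the lanosterol demethylase, was at 5.44 to 12 nRPM over the MM1.S libraries. In edgeR for MM1.S and limma for H929 it passed without the block only with shRNA2 in H929, at -0.51 ± 0.19 (limma adjusted p = 0.043). That H929 call was lost in DESeq2, in edgeR on the recovered reads, with TMM scaling and without a filter. With the replicate block CYP51A1 passed as lower with both hairpins in MM1.S. SC5D, the sterol desaturase before DHCR7, rose with shRNA1. It had 40.6 and 30.2 nRPM with shRNA1 and 29.9 and 22.9 nRPM with shRNA2 in MM1.S, against 23.6 and 18.1 nRPM with scramble. In H929 it had 62.9 and 74.8 nRPM with shRNA1 against 29.5 and 30.6 nRPM in its scramble, and 29.9 and 28.3 nRPM with shRNA2 against 27.3 and 22.3 nRPM in its scramble. Both shRNA1 groups were above their scramble group, 2.23-fold in H929. For SC5D the shRNA1 log2 fold changes were 0.69 ± 0.21 and 1.16 ± 0.12 (edgeR adjusted p = 0.031, limma adjusted p = 5.2e-07).

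**Figure D2:**
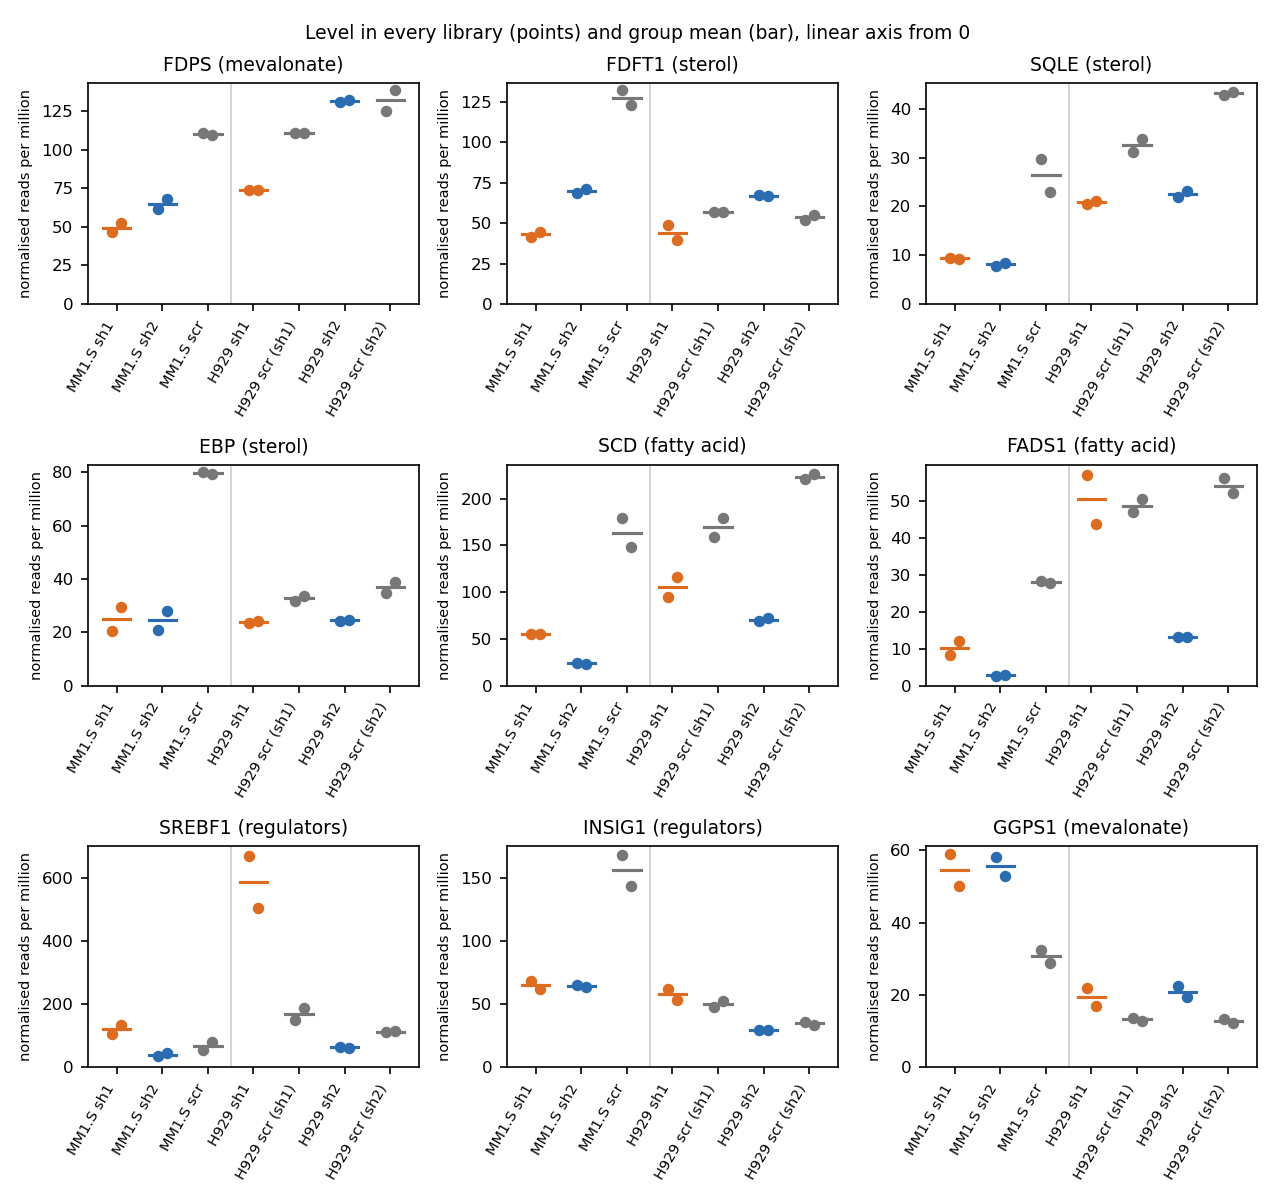
Level of 9 members in each of the 14 libraries (points; bars are group means, n = 2 each), in nRPM on a linear axis from 0, with MM1.S left of the line and H929 right of it. SCD and FADS1 are lowest with shRNA2 (blue) in both lines, SREBF1 is highest with shRNA1 (orange) in H929 at 506 and 671, and GGPS1 is higher in all knockdown groups than in their scramble groups.

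Within the fatty acid branch, with shRNA2 the desaturases FADS1, SCD and FADS2 had the 3 lowest log2 fold changes of all members in each line. SCD, which puts the first double bond into saturated acyl chains, had 54.8 and 55.7 nRPM with shRNA1 and 24.5 and 23.0 nRPM with shRNA2 in MM1.S, against 179.5 and 148 nRPM with scramble. The H929 levels were 95.0 and 116 nRPM with shRNA1 against 159 and 179.6 nRPM in its scramble, and 68.9 and 72.1 nRPM with shRNA2 against 221 and 227 nRPM in its scramble. No groups overlapped. For SCD the log2 fold changes were -1.64 ± 0.13 and -2.81 ± 0.14 (edgeR adjusted p = 1.1e-04 and 2.4e-05) in MM1.S and -0.72 ± 0.10 and -1.70 ± 0.10 (limma adjusted p = 1.4e-05 and 4.6e-09) in H929. FADS1, which desaturates polyunsaturated chains, had 8.19 and 12.1 nRPM with shRNA1 and 2.69 and 2.95 nRPM with shRNA2 in MM1.S, against 28.2 and 27.8 nRPM with scramble. In H929 FADS1 had 57.2 and 43.8 nRPM with shRNA1 against 47.1 and 50.4 nRPM in its scramble, and 13.2 and 13.2 nRPM with shRNA2 against 56.2 and 52.2 nRPM in its scramble. The shRNA1 libraries of H929 enclosed their scramble libraries, and the other groups were apart. For FADS1 the log2 fold changes were -1.54 ± 0.20 and -3.34 ± 0.23 (edgeR adjusted p = 9.1e-04 and 5.4e-05) in MM1.S and 0.01 ± 0.12 and -2.06 ± 0.12 (limma adjusted p = 0.97 and 4.2e-09) in H929.

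FADS2, the desaturase at the preceding step, was low in MM1.S, with 0.831 and 1.41 nRPM with shRNA1 and 0.693 and 0.768 nRPM with shRNA2, against 2.51 and 3.12 nRPM with scramble. H929 cells had 28.8 and 24.6 nRPM with shRNA1 against 33.8 and 33.5 nRPM in its scramble, and 18.6 and 19.9 nRPM with shRNA2 against 44.0 and 48.5 nRPM in its scramble. Knockdown libraries were below their scramble libraries in each case. For FADS2 the log2 fold changes were -1.42 ± 0.32 and -1.97 ± 0.33 (edgeR adjusted p = 0.01 and 0.003) in MM1.S and -0.37 ± 0.11 and -1.29 ± 0.11 (limma adjusted p = 0.011 and 2.1e-07) in H929; the shRNA1 calls were lost without shRNA1 replicate 1 in MM1.S (edgeR adjusted p = 0.0739) and without shRNA1 replicate 2 in H929 (limma adjusted p = 0.0923). FADS2 shares exon bases with FEN1, a replication gene, on its own strand, and the share of its reads that come from FEN1 was not tested. ELOVL6, which elongates palmitate, had 28.9 and 24.4 nRPM with shRNA1 and 11.4 and 10.0 nRPM with shRNA2 in MM1.S, against 15.2 and 15.4 nRPM with scramble. The shRNA1 libraries were above and the shRNA2 libraries below the scramble range. For ELOVL6 the MM1.S values were 0.72 ± 0.15 and -0.55 ± 0.15 (edgeR adjusted p = 0.0074 and 0.026), and the shRNA1 call was lost without shRNA1 replicate 1 (edgeR adjusted p = 0.0514) and the shRNA2 call without any 1 of its 4 libraries (edgeR adjusted p = 0.0567 to 0.174). In H929 ELOVL6 fell with shRNA2, by -0.92 ± 0.15 (limma adjusted p = 1.6e-04), and did not pass with shRNA1 against its scramble (0.15 ± 0.15). With both scramble groups as control ELOVL6 passed as higher with shRNA1, at 0.34 (limma adjusted p = 0.0326).

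Upstream of the desaturases, FASN, the fatty acid synthase, had 517 and 465 nRPM with shRNA1 against 399.8 and 396 nRPM in its H929 scramble, and 268 and 274 nRPM with shRNA2 against 438 and 547 nRPM in its scramble. It rose slightly with shRNA1, by 0.27 ± 0.10 (limma adjusted p = 0.033), a call lost when both H929 scramble groups served as control (limma adjusted p = 0.36), and fell with shRNA2, by -0.88 ± 0.10 (limma adjusted p = 3.9e-06). In MM1.S the FASN groups overlapped, at -0.30 ± 0.22 and -0.25 ± 0.22; both values passed as lower with the replicate block (edgeR adjusted p = 0.00196 and 0.0062). ACACA, the acetyl-CoA carboxylase that supplies malonyl-CoA, fell by -0.43 ± 0.14 and -0.73 ± 0.14 (edgeR adjusted p = 0.043 and 0.0059) in MM1.S and with shRNA2 in H929 by -0.86 ± 0.10 (limma adjusted p = 5.9e-06). The first of these was also lost when only the compared groups were fitted (edgeR adjusted p = 0.076). ACLY, which makes cytosolic acetyl-CoA from citrate and so feeds both branches, had 135 and 135 nRPM with shRNA1 against 261 and 262 nRPM in its H929 scramble, and 219 and 201 nRPM with shRNA2 against 329 and 343 nRPM in its scramble. It fell by -0.99 ± 0.08 and -0.71 ± 0.08 in H929 and by -0.73 ± 0.13 and -0.50 ± 0.13 in MM1.S. The malic enzyme ME1, a source of NADPH, rose with shRNA1 in H929, by 0.29 ± 0.10 (limma adjusted p = 0.019), and did not pass with shRNA2 there (0.04 ± 0.10) or in MM1.S (-0.27 ± 0.13 and -0.24 ± 0.13), where both values passed as lower with the block.

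Of the regulators, SREBF1 had 104 and 135 nRPM with shRNA1 and 33.9 and 45.7 nRPM with shRNA2 in MM1.S, against 55.4 and 80.1 nRPM with scramble. In the H929 libraries it had 671 and 506 nRPM with shRNA1 against 149 and 189 nRPM in its scramble, and 63.6 and 61.0 nRPM with shRNA2 against 110.0 and 114 nRPM in its scramble. In each line the shRNA1 libraries were above and the shRNA2 libraries below their scramble libraries. For SREBF1 the log2 fold changes were 0.74 ± 0.23 and -0.79 ± 0.23 (edgeR adjusted p = 0.037 and 0.031) in MM1.S and 1.76 ± 0.12 and -0.88 ± 0.12 (limma adjusted p = 7.3e-09 and 3.0e-05) in H929. The MM1.S calls were each lost without some library. For shRNA1 this was scramble replicate 1 or shRNA1 replicate 2 (edgeR adjusted p = 0.141 and 0.116), and for shRNA2 scramble replicate 2 or shRNA2 replicate 1 (0.137 and 0.182); both calls stood with the replicate block. SREBF1 shares exon bases with RAI1 on the opposite strand. SREBF2 had 188 and 253 nRPM with shRNA1 and 220.1 and 273 nRPM with shRNA2 in MM1.S, against 321 and 370.3 nRPM with scramble. It fell with shRNA1, by -0.73 ± 0.19 (edgeR adjusted p = 0.017), and missed the threshold with shRNA2, at -0.52 ± 0.18 (edgeR adjusted p = 0.061), which passed with the block (edgeR adjusted p = 3.5e-05). In H929 its values were 0.11 ± 0.09 and -0.26 ± 0.09 (limma adjusted p = 0.33 and 0.031). SCAP, the SREBP escort, passed in none of the 4 comparisons in edgeR for MM1.S or limma for H929 without the block (-0.06 to 0.31).

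INSIG1, the feedback anchor of the SREBPs, had 68.7 and 61.9 nRPM with shRNA1 and 65.2 and 63.4 nRPM with shRNA2 in MM1.S, against 169 and 144 nRPM with scramble. The H929 values were 62.3 and 53.4 nRPM with shRNA1 against 47.8 and 52.3 nRPM in its scramble, and 29.8 and 29.7 nRPM with shRNA2 against 35.7 and 33.8 nRPM in its scramble. The MM1.S knockdown libraries were far below the scramble libraries; the H929 groups did not overlap either, with shRNA1 slightly above and shRNA2 slightly below. For INSIG1 the log2 fold changes were -1.33 ± 0.13 and -1.31 ± 0.13 (edgeR adjusted p = 2.2e-04 and 2.5e-04) in MM1.S, and 0.17 ± 0.10 and -0.26 ± 0.10 (limma adjusted p = 0.17 and 0.056) in H929. Its partner INSIG2, which acts in the same way, had 51.7 and 43.8 nRPM with shRNA1 and 20.7 and 14.9 nRPM with shRNA2 in MM1.S, against 42.9 and 32.9 nRPM with scramble. It fell with shRNA2 by -1.12 ± 0.20 (edgeR adjusted p = 0.0037) in MM1.S and by -0.74 ± 0.12 (limma adjusted p = 1.1e-04) in H929. With shRNA1 it rose in H929, by 0.37 ± 0.12 (limma adjusted p = 0.015), and did not pass in MM1.S (0.26 ± 0.19). STARD4, which carries cholesterol between membranes, had 17.7 and 17.1 nRPM with shRNA1 and 9.01 and 6.99 nRPM with shRNA2 in MM1.S, against 32.4 and 22.9 nRPM with scramble. It fell by -0.74 ± 0.20 and -1.82 ± 0.21 (edgeR adjusted p = 0.021 and 5.1e-04) in MM1.S and with shRNA2 in H929 by -0.58 ± 0.16 (limma adjusted p = 0.0069), and was -0.25 ± 0.16 with shRNA1 there.

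The hairpins were set against each other to see where the responses to them differ. In H929 each hairpin has its own scramble group, and these groups were not alike, as given below. There a difference between hairpins and one between scramble groups cannot be told apart. In MM1.S, 6 members were lower and 5 higher with shRNA2 than with shRNA1, where 20.4% of all genes were lower and 16.4% higher. In H929 the shRNA2 effect, measured against its own scramble, was lower than the shRNA1 effect for 14 members and higher for 7, where 21.9% of all genes were lower and 20.0% higher. These tests share no library. The 5 members higher in MM1.S (ACAT2, FDPS, FDFT1, TM7SF2 and NSDHL, all mevalonate or sterol genes) were all among the 7 higher in H929 (71.4% of that list), joined there by MSMO1 and DHCR7. Of the 6 lower in MM1.S, 5 were among the 14 lower in H929 (83.3% and 35.7% of the lists): SCD, ELOVL6, FADS1, SREBF1 and INSIG2, all fatty acid genes or regulators. Without the replicate block no member passed in opposite directions in the lines. How many of all genes were called alike in both lines was not counted. This overlap is therefore not shown to be particular to the members or their branches. The largest differences were those of SREBF1, at -1.54 ± 0.24 in MM1.S and -2.64 ± 0.17 (edgeR adjusted p = 0.0021, limma adjusted p = 2.0e-08) in H929, and of FADS1, at -1.79 ± 0.22 and -2.07 ± 0.17 (edgeR adjusted p = 8.7e-04, limma adjusted p = 1.5e-07). On the other side TM7SF2 differed by 1.27 ± 0.27 and 1.57 ± 0.16 (edgeR adjusted p = 0.0086, limma adjusted p = 1.2e-06). By branch, the fatty acid genes had a median difference of -0.42 in MM1.S and -0.95 in H929, the regulators one of -0.53 and -0.40, the sterol genes one of 0.16 and 0.23 and the mevalonate genes one of 0.19 and 0.07, against 0.00 and 0.02 over all genes. In H929 the mevalonate genes split into 3 lower and 2 higher, and the sterol genes into 1 lower and 5 higher. STARD4 was lower in MM1.S, at -1.08 ± 0.21 (edgeR adjusted p = 0.0053), and did not pass in H929 (-0.34 ± 0.22). FASN and HMGCS1 differed in H929, by -1.15 ± 0.14 (limma adjusted p = 9.6e-06) and -1.17 ± 0.16 (limma adjusted p = 3.0e-05), and did not pass in MM1.S (0.05 ± 0.22 and -0.41 ± 0.17; edgeR adjusted p = 0.88 and 0.1). Over all genes the replicate block gave 5267 lower and 5113 higher in MM1.S, against 3644 lower and 2915 higher without it. The member counts with the block were 10 lower and 11 higher. The 10 gained had edgeR adjusted p = 5.7e-04 to 0.0138. Among the 10 gained, IDI1, MSMO1, SCAP, ACLY, PMVK and SREBF2 were higher and HMGCS1, LSS, SC5D and ACACA lower. Of these, IDI1 and SREBF2 were opposite to their H929 calls: with the block they were higher with shRNA2 in MM1.S, by 0.48 ± 0.08 and 0.21 ± 0.06 (edgeR adjusted p = 5.7e-04 and 0.0138), and in H929 lower, by -0.42 ± 0.16 and -0.37 ± 0.13 (limma adjusted p = 0.046 and 0.03). In MM1.S the calls of ACAT2, FDPS and TM7SF2 were lost without some library (edgeR adjusted p = 0.0565 to 0.184), and without any 1 of the shRNA libraries 3 members were higher. In H929 the calls of ACAT2, IDI1, INSIG1, MVD and SREBF2 were lost in the same way (limma adjusted p = 0.0663 to 0.237). ZBP1 itself was lower with shRNA2 than with shRNA1 in MM1.S, by -0.56 ± 0.15 (edgeR adjusted p = 0.022), and the H929 difference was -0.31 ± 0.13 (limma adjusted p = 0.07).

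**Figure D3:**
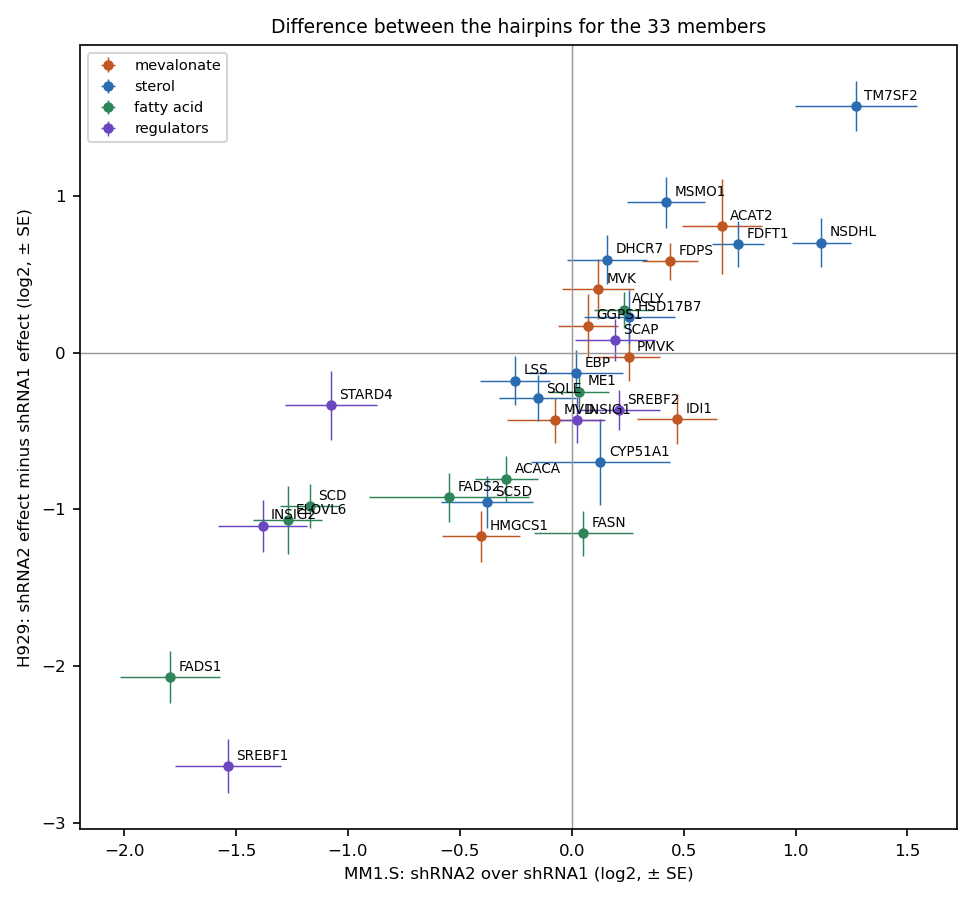
Difference between the hairpins for each member, with shRNA2 over shRNA1 in MM1.S on the horizontal axis and the shRNA2 effect minus the shRNA1 effect in H929 on the vertical axis (log2, with standard errors). SREBF1 and FADS1 lie at the lower left and TM7SF2 at the upper right; mevalonate and sterol genes fill most of the upper right and fatty acid genes and regulators most of the lower left.

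The H929 scramble groups were not alike for these genes. In the scramble for shRNA2, 11 members were higher and 6 lower than in the scramble for shRNA1, where 16.8% of all genes were higher and 13.1% lower. PMVK had 128 and 166 nRPM in the scramble for shRNA2 and 91.6 and 89.2 nRPM in the scramble for shRNA1, a log2 difference of 0.74 ± 0.11 (limma adjusted p = 1.0e-04). ACACA had 54.3 and 55.6 nRPM and 42.7 and 37.3 nRPM in the same order, a difference of 0.51 ± 0.10 (limma adjusted p = 0.0013). The 6 members lower in the scramble for shRNA2 were STARD4, at -0.57 ± 0.16 (limma adjusted p = 0.012), TM7SF2, at -0.55 ± 0.11 (limma adjusted p = 0.0016), SREBF1, at -0.53 ± 0.12 (limma adjusted p = 0.0041), INSIG1, at -0.47 ± 0.10 (limma adjusted p = 0.0027), MVD, at -0.35 ± 0.10, and LSS, at -0.33 ± 0.11. TM7SF2 had 35.3 and 40.4 nRPM there and 56.0 and 59.0 nRPM in the scramble for shRNA1, so its 64.0 and 63.5 nRPM with shRNA2 lay closer to the scramble for shRNA1 than to its own. The 5 higher fatty acid genes were ACLY, ACACA, FASN, SCD and FADS2, by 0.35 to 0.51. ZBP1 was lower there too, by -0.29 ± 0.09 (limma adjusted p = 0.026). The proliferation list was higher, at 3094 to 3286 nRPM in the scramble for shRNA2 and 1263 to 1298 nRPM in the scramble for shRNA1, and its part was not tested. With both scramble groups as control, shRNA1 gave 15 lower and 9 higher members and shRNA2 17 lower and 5 higher. The rise of TM7SF2 with shRNA2 was then 0.45 (limma adjusted p = 0.00148). The calls of FASN with shRNA1 (0.09, limma adjusted p = 0.363) and of CYP51A1 with shRNA2 (-0.42, limma adjusted p = 0.0529) were lost. INSIG1 passed as higher with shRNA1 (0.41, limma adjusted p = 7.8e-04) and as lower with shRNA2 (-0.49, limma adjusted p = 3.4e-04). With shRNA1, PMVK (-0.53) and ACACA (-0.31) also passed as lower and ELOVL6 (0.34) as higher (limma adjusted p = 1.1e-04, 0.0057 and 0.0326). With shRNA2, MVD (-0.32) also passed as lower and NSDHL (0.37) as higher (limma adjusted p = 0.0074 and 0.006). The calls of ACAT2, FASN, FDPS, LSS, MVD, MVK, NSDHL, SREBF1 and STARD4 between the scramble groups were lost without some library (limma adjusted p = 0.0544 to 0.31). Without replicate 2 of the scramble for shRNA1, 7 members were higher and 2 lower, and without replicate 2 of the scramble for shRNA2, 6 were higher.

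The hairpin effects were then compared between the lines. With shRNA1 the effect was lower in MM1.S than in H929 for 15 members and higher for 0 in limma, where 10.1% of 20312 genes were lower and 11.5% higher. With shRNA2 it was lower for 10 members and higher for 0, where 5.54% of all genes were lower and 3.97% higher. Both comparisons use the same MM1.S scramble libraries, so like values with both hairpins are not independent results. At an unadjusted p under 0.05, 1 member was higher with each hairpin, and edgeR on counts also called 0 higher. For shRNA1, TMM scaling turned the split over all genes round, with 2020 higher and 2454 lower under TMM and 2332 higher and 2055 lower without it; the members were 15 lower and 0 higher under TMM. For shRNA2 it gave 630 higher and 1362 lower, against 807 higher and 1126 lower without it, and the members were 11 lower and 0 higher. INSIG1, called lower in MM1.S and not called in H929, differed by -1.46 ± 0.16 with shRNA1 and -1.05 ± 0.16 with shRNA2 (limma adjusted p = 5.0e-05 and 0.0016). FADS1 differed by -1.53 ± 0.24 and -1.26 ± 0.24 (limma adjusted p = 7.6e-04 and 0.0065). For FDFT1 the differences were -1.20 and -1.19 (± 0.15 each; limma adjusted p = 1.6e-04 and 5.2e-04), and for EBP -1.23 and -1.12 (± 0.23 each; limma adjusted p = 0.0023 and 0.0096). By branch, 5 of 11 sterol genes differed with each hairpin, and 3 and 1 of 8 mevalonate genes, 4 and 2 of 8 fatty acid genes and 3 and 2 of 6 regulators. ZBP1 was also lowered further in MM1.S, by -1.20 ± 0.17 and -1.5 ± 0.17 (limma adjusted p = 2.8e-04 and 2.3e-04), and the part of knockdown depth in these differences was not tested. With the replicate block 19 members were lower and 2 higher with shRNA1, and 13 lower and 1 higher with shRNA2. Over all genes the block also added calls, to 3020 lower and 3316 higher with shRNA1 and 1982 lower and 1761 higher with shRNA2. Leaving out 1 library at a time ended the call of FADS2, ME1, SREBF1 or SREBF2 with shRNA1 (limma adjusted p = 0.0503 to 0.121) and of HSD17B7, MSMO1, SQLE or STARD4 with shRNA2 (0.0506 to 0.0926). Without H929 shRNA2 replicate 1, or without replicate 2 of its scramble, 6 members were lower with shRNA2, and without replicate 1 of the scramble for shRNA1, 1 was higher with shRNA1.

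**Figure D4:**
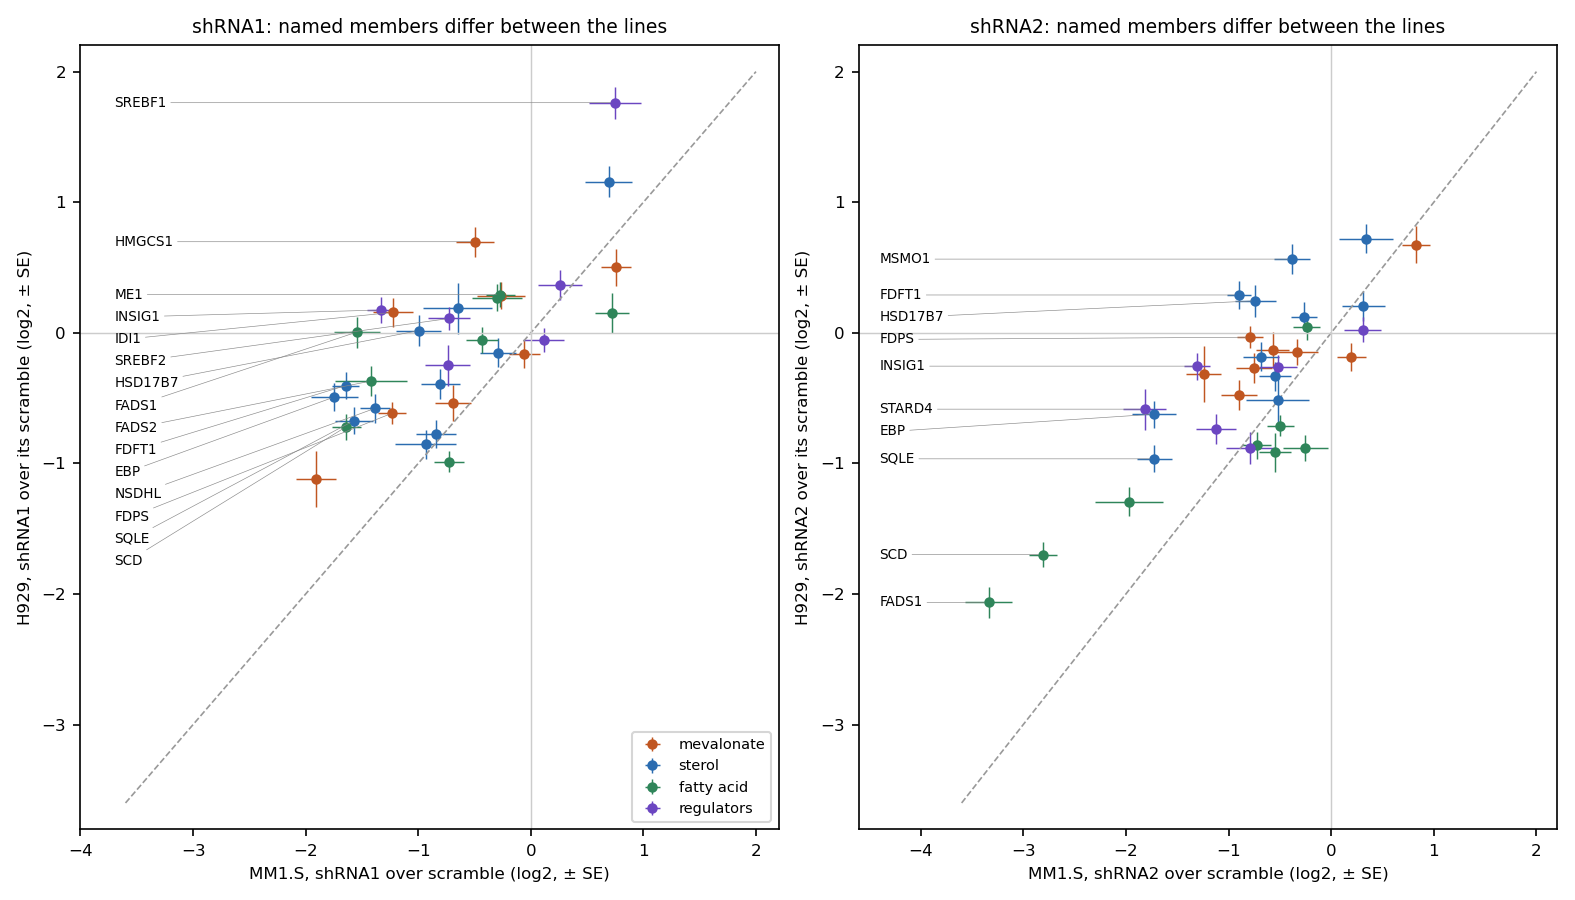
Log2 fold change of each member in MM1.S (horizontal axis) and in H929 (vertical axis) with shRNA1 (left panel) and shRNA2 (right panel), with standard errors; the dashed line marks equal effects, and members are named where the effects differed between the lines at an adjusted p under 0.05. All named members lie above the dashed line, 15 with shRNA1 and 10 with shRNA2.

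The scramble libraries show where the lines started. MM1.S was higher than H929 for 13 members and lower for 12, where 35.5% of all genes were higher and 37.1% lower, so the members' share was close to that of all genes. Since the tables were deposited separately, this contrast is also one between tables. Per kilobase of exon, the highest levels in MM1.S scramble cells were PMVK (63.6 nRPM per kilobase), SREBF2 (45.8), INSIG1 (42.8), FASN (41.5) and ACLY (41.1). The lowest in MM1.S was FADS2 (0.256 nRPM per kilobase), which stood at 4.19 and 3.05 nRPM per kilobase in the H929 scramble groups for shRNA2 and shRNA1. FADS2 was thus lower in MM1.S by a log2 difference of -3.79 ± 0.18 (limma adjusted p = 6.3e-10). IDI1 was higher in MM1.S by 2.10 ± 0.13 (limma adjusted p = 6.6e-09), ACAT2 by 2.01 ± 0.18 (limma adjusted p = 2.2e-07), INSIG1 by 1.90 ± 0.10 (limma adjusted p = 9.4e-10) and LSS by 1.86 ± 0.12 (limma adjusted p = 6.8e-09). SREBF2 was higher in MM1.S (0.87 ± 0.12) and SREBF1 lower (-1.04 ± 0.17). None of the 8 fatty acid genes was called higher in MM1.S in limma and 5 were called lower, and at an unadjusted p under 0.05 0 were higher. Of the 8 mevalonate genes 4 were called higher and 2 lower, and of the 11 sterol genes 5 higher and 4 lower. The branches were not tested as sets. The calls of HSD17B7, NSDHL, SC5D, SCD and STARD4 were lost without some library (limma adjusted p = 0.0509 to 0.399).

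Genes around the pathway were counted from lists chosen for their roles. The genes named from them passed with both hairpins in the line given (edgeR for MM1.S, limma for H929). Of all genes tested in MM1.S, 19.7% were lower and 17.8% higher with shRNA1, and 21.7% and 14.9% with shRNA2. In H929 these shares were 27.7% and 25.7% with shRNA1, and 25.0% and 18.0% with shRNA2. Among 15 genes of SREBP processing and sterol sensing, which hold the proteases, the Golgi carriers and the sterol sensors, 2 were lower and 2 higher with shRNA1 and 7 lower and 1 higher with shRNA2 in MM1.S. In H929 4 were lower and 6 higher with shRNA1, and 6 lower and 1 higher with shRNA2. TMEM97, a sterol-binding endoplasmic reticulum protein induced by SREBPs, fell by -1.66 ± 0.14 and -2.09 ± 0.14 in MM1.S and by -0.92 ± 0.12 and -1.42 ± 0.12 in H929. SURF4, a cargo receptor of the early secretory pathway, fell by -1.06 ± 0.12 and -1.20 ± 0.12 in MM1.S and by -1.63 ± 0.08 and -1.22 ± 0.08 in H929. Of 23 tested genes of acetyl-CoA supply and fatty acyl handling, 12 and 10 fell in MM1.S (shRNA1 and shRNA2) and 11 and 15 in H929, and 3, 2, 5 and 1 rose in the same order. SLC25A1, the mitochondrial citrate carrier that supplies ACLY, fell by -1.78 ± 0.20 and -0.99 ± 0.20 in MM1.S. FABP5, a fatty acid binding protein, fell by -1.11 ± 0.16 and -1.03 ± 0.16 in MM1.S and by -1.23 ± 0.17 and -1.38 ± 0.17 in H929. MID1IP1, an activator of acetyl-CoA carboxylase, fell by -1.94 ± 0.12 and -0.70 ± 0.12 in H929. ACACB, the mitochondrial acetyl-CoA carboxylase, fell by -0.54 ± 0.16 and -1.41 ± 0.16 in MM1.S.

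The users of isoprenoids, 16 genes of prenylation, dolichol and ubiquinone synthesis, fell in 4 and 6 cases in MM1.S and in 6 and 7 in H929, and rose in 0 and 1 in MM1.S and in 4 and 1 in H929. The 0 with shRNA1 in MM1.S (edgeR) was also 0 at an unadjusted p under 0.05, in DESeq2 and in limma. PDSS1, which builds the ubiquinone tail, fell by -1.85 ± 0.16 and -1.49 ± 0.16 in MM1.S and by -1.41 ± 0.15 and -1.17 ± 0.15 in H929. ICMT, which methylates prenylated proteins, fell by -1.56 ± 0.11 and -1.20 ± 0.11 in MM1.S and by -1.42 ± 0.09 and -0.56 ± 0.09 in H929. DOLPP1, a dolichyl pyrophosphate phosphatase, fell by -0.77 ± 0.16 and -0.51 ± 0.16 in MM1.S. Of 22 genes of glycerolipid and phospholipid synthesis, 2 and 4 were lower and 4 and 0 higher in MM1.S in edgeR, with 1 higher at an unadjusted p under 0.05 for shRNA2 and 0 in DESeq2 and limma, and 6 and 4 lower and 7 and 5 higher in H929. CDS1, a CDP-diacylglycerol synthase, rose by 2.15 ± 0.23 and 0.97 ± 0.23 in H929, the largest mean change of the list there among genes called alike with both hairpins. LPCAT1, a lysophosphatidylcholine acyltransferase, fell by -0.45 ± 0.09 and -1.13 ± 0.09 in H929. PTDSS1, a phosphatidylserine synthase, fell by -0.41 ± 0.12 and -0.80 ± 0.12 in MM1.S and by -0.25 ± 0.08 and -0.80 ± 0.08 in H929. Of 16 tested genes of sterol uptake, storage and lysosomal transport, 5 and 4 were lower and 5 and 3 higher in MM1.S, and 6 and 7 lower and 3 and 3 higher in H929. SCARB1, a lipoprotein receptor, fell by -0.51 ± 0.16 and -2.36 ± 0.17 in MM1.S and by -0.88 ± 0.11 and -1.56 ± 0.11 in H929. LRP8, another lipoprotein receptor, fell by -1.18 ± 0.14 and -1.89 ± 0.15 in MM1.S and by -0.33 ± 0.10 and -1.23 ± 0.10 in H929. VLDLR, a lipoprotein receptor too, rose by 1.25 ± 0.23 and 0.93 ± 0.23 in MM1.S. GRAMD1A, a sterol transfer protein at membrane contacts, fell by -1.60 ± 0.10 and -0.52 ± 0.10 in H929. Fatty acid oxidation genes, 15 tested in MM1.S and 16 in H929, were lower in 5 and 5 and in 8 and 3 cases, and higher in 3 and 2 and in 4 and 1. PPARA, a transcription factor of fatty acid oxidation, rose by 1.33 ± 0.12 and 0.44 ± 0.12 in MM1.S. ACAA2, a mitochondrial thiolase, fell by -1.17 ± 0.14 and -0.89 ± 0.14 in MM1.S and by -0.70 ± 0.10 and -0.39 ± 0.10 in H929, and HADH, a hydroxyacyl-CoA dehydrogenase, by -0.86 ± 0.11 and -0.39 ± 0.11 in MM1.S. For all of these lists the share of all genes called stands ahead of the first list, and the lists were not tested as sets. Some counts are near that share, such as the 6 of 22 glycerolipid genes lower with shRNA1 in H929, against 27.7% of all genes.

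The authors' deposited tables, which give their own comparison of knockdown and scramble for each hairpin, list 25 members lower and 4 higher with shRNA1 and 24 lower and 4 higher with shRNA2 in MM1.S at an adjusted p under 0.05. In H929 the authors' deposited tables list 13 lower and 5 higher with shRNA1, and 13 lower and 3 higher with shRNA2. No member called in the authors' deposited tables was called in the opposite direction here, and 24, 22, 18 and 16 members had the same call in the order given. In MM1.S some members were called there but not here without the block. With shRNA1 these were HMGCS1, LSS, CYP51A1, FASN and ME1, all lower (authors' DESeq2 adjusted p = 3.9e-05 to 0.0329). With shRNA2 MSMO1, FASN and SREBF2 were lower and PMVK, SC5D and SCAP higher (authors' DESeq2 adjusted p = 1.6e-11 to 0.0282). In H929, MVD, ME1 and INSIG2 with shRNA1 were called here but not there (authors' DESeq2 adjusted p = 0.0603 to 0.0936). With shRNA2 the same held for FDFT1, LSS, CYP51A1 and SREBF2 (authors' DESeq2 adjusted p = 0.0629 to 0.185). Both sets of calls rest on the same libraries, so they are not independent. ZBP1 is negative in each of the authors' deposited tables, so their fold changes run knockdown over scramble.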

How the data were processed

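Poly(A) RNA-seq gave 14 libraries. The submitters' processing notes name STAR 2.5.3a, GRCh38 and DESeq2 1.24.0; the counting tool and its use of strand are not given in the sources used here. The deposited MM1.S table holds whole-number counts per gene. The H929 table carries the same label, yet it holds a normalised signal, in which the authors had divided each library's counts by 1 size factor. Dividing each library by its step, the value that 1 read takes there, gave whole reads for 100% of values within 0.01. On those recovered reads edgeR called 13 members lower and 8 higher with shRNA1 and 14 lower and 4 higher with shRNA2. The authors' deposited comparison tables hold log2 fold changes, test scores and p-values; the test scores were not used. Repeated gene identifiers (18 in each table) were left out.

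MM1.S counts were tested with edgeR 4.0.16 (R 4.3.3; TMM, filterByExpr minimum count 10, quasi-likelihood F test, all 6 libraries). H929 values, line differences and scramble levels between lines were tested with limma 3.58.1 (limma-trend) on log2(value + 1), so fold changes of low genes are understated, for genes reaching 10 in 2 or more libraries. P-values were adjusted by Benjamini-Hochberg over all genes tested, with a threshold of 0.05. Alternatives were DESeq2 1.42.0, other scaling, no filter, a pseudocount of 10, only the compared groups, both H929 scramble groups as control, a replicate block, and each library left out. The scripts were tested on simulated data, where the false calls exceeded the nominal rate. All 33 members are named; from each further list, up to 3 genes per line are named, those called in 1 direction with both hairpins with the largest mean absolute log2 fold change and a mean of at least 5 CPM; some genes that meet this rule are not reported here. Members and lists were chosen with earlier results of these data known. Same-numbered MM1.S libraries deviated together (correlations of 0.571, 0.499 and 0.769 over 11200 genes), which was read as pairing by number; no label says what they stand for. In H929 the correlations were -0.167 to 0.204 over 10944 genes, and the numbers were not taken as pairs. Hairpin columns that carry the number 4 were taken as shRNA2, and 1 H929 scramble column as the second library for shRNA1, since no other label fits them.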

Additional observations from a re-analysis of the deposited data

Results flagged for a closer look

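The hairpin effects differed between the lines (MM1.S minus H929, log2, limma adjusted p under 0.05) for the following members. With shRNA1 the difference was -1.13 for HMGCS1, -1.33 for IDI1 and -0.57 for FDPS among the mevalonate genes. Among the sterol genes it was -1.20 for FDFT1, -0.84 for SQLE, -0.76 for NSDHL, -0.96 for HSD17B7 and -1.23 for EBP. Among the fatty acid genes it was -0.87 for SCD, -1.53 for FADS1, -0.99 for FADS2 and -0.52 for ME1, and among the regulators -0.96 for SREBF1, -0.81 for SREBF2 and -1.46 for INSIG1. With shRNA2 the mevalonate gene FDPS differed by -0.76. The sterol genes FDFT1, SQLE, MSMO1, HSD17B7 and EBP differed by -1.19, -0.75, -0.93, -0.99 and -1.12. The fatty acid genes SCD and FADS1 differed by -1.11 and -1.26, and the regulators INSIG1 and STARD4 by -1.05 and -1.22. SREBF1 rose with shRNA1 in both lines, so its value is a smaller rise in MM1.S, and HMGCS1 rose with shRNA1 in H929 and was not called with it in MM1.S.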

How the results depend on the processing

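No member value that was called reversed its direction under any alternative: of 5049 member values, 4712 kept their side of the threshold (79 of these changed sign without being called in either), 97 gained a call and 240 lost one. With the replicate block, shRNA2 gave 5 higher members in MM1.S, shRNA2 against shRNA1 gave 10 lower and 11 higher in MM1.S, and the line difference gave 2 higher with shRNA1 and 1 higher with shRNA2; in H929, where the numbers are not pairs, the block gave 13 lower and 8 higher with shRNA1 and 16 lower and 4 higher with shRNA2. The block also added calls over all genes in the MM1.S comparisons and the line differences, as given above. Without a filter, the H929 scramble comparison gave 3 lower. Leaving out 1 library at a time gave these ranges. In MM1.S shRNA1 gave 13 to 19 lower and 2 to 4 higher, shRNA2 14 to 22 lower and 1 to 1 higher, and shRNA2 against shRNA1 6 to 6 lower and 3 to 7 higher. In H929 shRNA1 gave 12 to 13 lower and 3 to 9 higher, shRNA2 13 to 18 lower and 3 to 4 higher, the hairpin difference 10 to 13 lower and 6 to 7 higher, and the scramble comparison 2 to 6 lower and 6 to 11 higher. Between lines, shRNA1 gave 11 to 16 lower and 0 to 1 higher, shRNA2 6 to 11 lower and 0 to 0 higher, and the scramble libraries 10 to 12 lower and 11 to 14 higher. Where a group was left with 1 library, that library was assumed to vary like the other groups. The cause of these changes was not tested.

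With 2 libraries per group the spread rests on few degrees of freedom, and small changes such as those of FDFT1 and FASN in H929 depend on single libraries. Depth limits FADS2 most, with 16 reads in its lowest library. Other scaling shifted the median of all genes by less than 0.1.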
